A study of Mus musculus with 16 samples.

Results

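Fibroblast growth factors (FGFs) and their receptors were followed in pancreatic stellate cells (PSCs) and in sympathetic ganglia that had shared medium in coculture. The 9 genes described were the ligands Fgf1, Fgf2, Fgf7, Fgf10 and Fgf18, the intracellular factor Fgf13, and the receptors Fgfr1, Fgfr2 and Fgfr3. They were taken by name from the 21684 protein-coding genes among the 56941 genes listed, and each was found once in both tables of expression values. The rule used gene names only.

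Bulk RNA sequencing of 16 mouse libraries was used, in which a library was 1 sample. PSCs were mPSC1 cells, an immortalized line from mouse pancreas that becomes activated on plastic, grown without nerves (PSC, n = 3) or with ganglia (PSC+SCG, n = 3). The ganglia were explants of the superior cervical ganglion (SCG) of mouse pups aged 1 to 4 days, kept alone as 3 libraries called SCG, beside NIH 3T3 cells as 3 libraries called SCG+MEF, or beside mPSC1 cells as 4 libraries called SCG+PSC. NIH 3T3 is an immortalized line of mouse embryonic fibroblasts, used as the fibroblast control. In each coculture 10000 cells on a porous insert shared the medium of 8 to 13 explants for 70 hours, without contact between them. Each of the PSC and the control fibroblast arms therefore rests on a single line, a nerve library pools several explants, and no source used here says which libraries came from the same litter or day.

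Depth was 31900689 to 41632381 reads on genes in the PSC libraries and 32013901 to 39197230 in the nerve libraries. Values are normalized counts, that is, reads per gene divided by the size factor of the library. PSC and nerve libraries were normalized apart, so groups were compared only within each of these sets. Of 10 fibroblast markers, 9 had a mean of at least 100 in PSCs, while the neuronal markers Th and Snap25 were listed at 0 in all 3 PSC+SCG libraries. All 13 sympathetic markers had a mean of at least 100 in the ganglia, but so did all 10 fibroblast markers, whose summed counts of 557381 to 792782 exceeded those of the sympathetic list (125569 to 297703). The nerve libraries were thus mixed tissue, labelled as sympathetic. SCG+PSC replicates 3 and 4 were far closer to each other (chi-square per degree of freedom 8.02) than any other pair of replicates (from 33.5 to 185). That distance is still above sampling noise, but this does not show that they were separate cultures, which no label states. They were counted as 2 libraries. SCG+PSC replicate 2 was the farthest from the others of its group (49.9 to 69.8), with the lowest sum of sympathetic markers there (144451 against 210220 to 256702) and the highest of cycling cell markers (27902 against 16098 to 19489).

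FGFs are small signalling proteins that bind heparan sulfate and receptor tyrosine kinases at the cell surface. The receptors act through the adaptor FRS2 and the RAS-ERK cascade, and Sprouty and Dusp genes are induced in turn and restrain the signal. Fgf1 and Fgf2 lack a classical signal peptide, and both act on many cell types, including fibroblasts, glia and neurons. Fgf7 and Fgf10 are typically made by mesenchyme and act on epithelia through a splice form of Fgfr2. Fgf18 is best known in skeletal growth. Fgf13 is not secreted and binds voltage-gated sodium channels and microtubules in neurons.

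The RefSeq promoter windows of Fgf2 and Fgf7 (from a table on GRCm38.p6) are shown because these ligands led the PSC libraries by level. Each window spans 250 bases before and 50 after the RefSeq start of the gene and was found once, base for base, in GRCm39 on the plus strand. Capitals mark matches on either strand to the GC box (GGGCGG) or to the core of the xenobiotic response element (GCGTG), and no position matched both.
Fgf2 promoter, chr3:37402552-37402851: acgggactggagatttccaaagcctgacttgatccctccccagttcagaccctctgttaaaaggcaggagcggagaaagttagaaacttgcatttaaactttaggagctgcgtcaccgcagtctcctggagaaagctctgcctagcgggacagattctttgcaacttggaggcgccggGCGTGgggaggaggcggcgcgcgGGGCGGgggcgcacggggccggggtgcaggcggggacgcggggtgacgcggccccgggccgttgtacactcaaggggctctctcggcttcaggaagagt
Fgf7 promoter, chr2:125876328-125876627: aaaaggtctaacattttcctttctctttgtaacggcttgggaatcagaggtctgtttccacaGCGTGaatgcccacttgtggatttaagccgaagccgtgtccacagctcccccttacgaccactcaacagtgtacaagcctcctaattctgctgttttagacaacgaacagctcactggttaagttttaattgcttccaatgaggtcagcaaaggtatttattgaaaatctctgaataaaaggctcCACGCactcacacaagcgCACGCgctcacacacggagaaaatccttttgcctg
The Fgf2 window held 1 GC box and 1 xenobiotic core and was 62.7% G or C, whereas the Fgf7 window held 3 xenobiotic cores and no GC box at 45.7% G or C. A GC box was present in 35.6% of all 32817 promoter windows and a xenobiotic core in 32.4%. Neither window held the cyclic AMP response element TGACGTCA (in 1.8% of all windows) or the AP-1 site TGANTCA (in 7.8%). The libraries do not measure binding at these letters.

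Per kilobase of annotated exon, Fgfr1 was the most abundant of the 9 genes in PSCs, at 2066 ± 244 normalized counts per kb (SD, n = 3). Fgfr1 is the receptor most used by mesenchymal cells. The ligand Fgf7 came next with 1102 ± 312 per kb, then Fgf2 (273 ± 55.6), Fgf10 (174 ± 21.1) and Fgfr2 (133 ± 33.3). At the bottom, Fgfr3 (14.4 ± 1.05) and Fgf1 (13.2 ± 3.504) overlapped between libraries, and Fgf18 had 2.48 ± 1.83 and Fgf13 0.0606 ± 0.105 per kb. Fgfr3 and Fgf1 were the only neighbours in this order to overlap in PSC. In PSC+SCG the ranges of Fgfr1 and Fgf7 also overlapped, as did those of Fgf10 and Fgfr2. Fgf7 made up 66.0% to 73.5% of the 5 secreted ligands per kb in PSC and 61.0% to 68.9% in PSC+SCG, while Fgf2 made up 16.2% to 18.9% and 20.3% to 26.0%. Among the 3 receptors, Fgfr1 held 91.7% to 95.5% in PSC and 91.0% to 95.8% in PSC+SCG.

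The nerve libraries had another order. Fgfr1 again led, at 831 ± 27.0 per kb (SD, n = 3) in SCG, followed by Fgf2 (347 ± 70.3) and Fgf13 (234 ± 69.3), which overlapped each other. A middle group of Fgf1 (63.0 ± 27.1), Fgf10 (55.1 ± 16.8) and Fgf7 (49.0 ± 21.2) overlapped from neighbour to neighbour, and so did a low group of Fgf18 (17.9 ± 1.72), Fgfr3 (15.9 ± 3.54) and Fgfr2 (12.6 ± 9.004). Fgf2 made up 60.1% to 72.0% of the 5 ligands in SCG, 55.1% to 66.4% in SCG+MEF and 69.2% to 77.9% in SCG+PSC. Fgfr1 held at least 94.6% of the 3 receptors in every nerve library. These shares leave out the other FGFs. In the ganglia the most abundant of those was Fgf5, a ligand known for ending hair growth, with 624 ± 144 per kb in SCG, above Fgf2 in the same group. Fgf5 was at 0.360 ± 0.465 per kb in PSC.

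**Figure D1:**
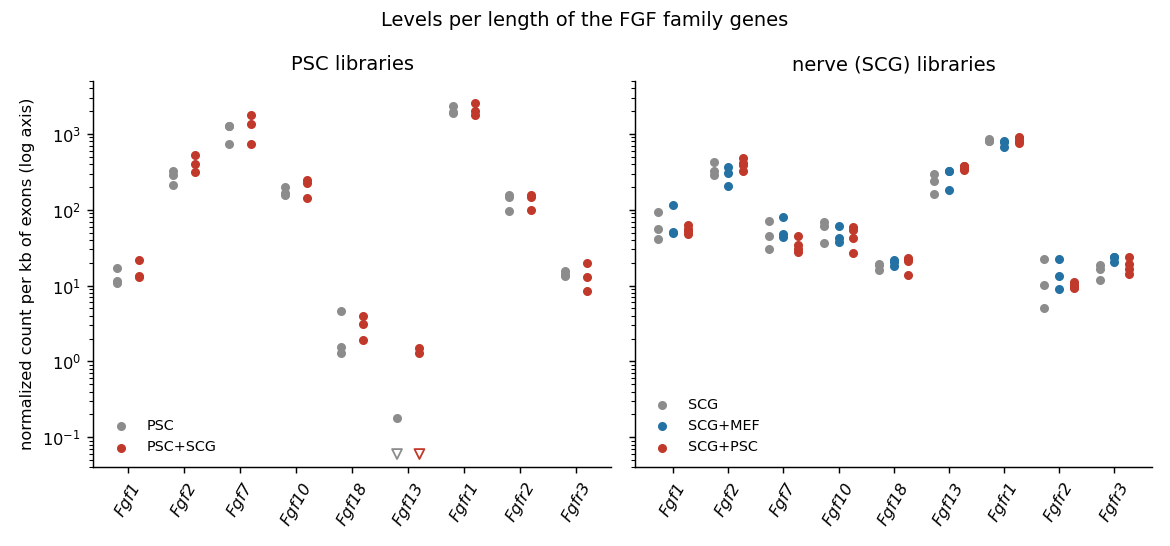
Normalized counts per kb of annotated exon (log axis) of the 9 FGF genes, 1 point per library, in PSC libraries (left) and nerve libraries (right); open triangles mark libraries in which a gene was listed at 0. Fgfr1 is highest in every group, Fgf7 is next in PSCs and Fgf2 in the ganglia, and Fgf13 is near 0 in PSCs. The tables were normalized separately, so heights are to be read within a panel.

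The first question was whether PSCs changed their FGF genes when cultured with ganglia. Differences were tested with limma on log2(normalized count + 1), with p-values adjusted by Benjamini-Hochberg. The threshold was an adjusted p no higher than 0.05 together with a log2 fold change of 0.5 or more in either direction. Without a block, 0 of the 9 genes were past it (1 of 9 at an unadjusted p under 0.05, Fgf2) in PSC+SCG against PSC, and of all 14541 protein-coding genes tested 0% were (205 at an unadjusted p under 0.05, with 1 past the threshold by DESeq2 and 0 by edgeR). With the replicate number as a block, 1 of the 9 genes was past it, Fgf2, against 0.523% of all genes (0.447% higher and 0.0756% lower). DESeq2 on the recovered reads with the block also placed Fgf2 alone past it, against 0.445% of all genes (0.384% higher and 0.0617% lower). The number was taken to stand for a shared experiment, since same-numbered libraries deviated together from their group means. Some libraries with different numbers did so too, with correlations of up to 0.38 in PSCs and 0.43 in nerves.

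Fgf2, a mitogen for fibroblasts, lies on chromosome 3 (GRCm39, 37402473 to 37464257, plus strand, ENSMUSG00000037225). PSC replicates 1, 2 and 3 had 2115, 1395 and 1873 normalized counts, and PSC+SCG replicates 1, 2 and 3 had 3523, 2083 and 2655. The groups overlapped by a narrow margin, because PSC replicate 1 was above PSC+SCG replicate 2. Within same-numbered libraries the log2 difference was 0.74, 0.58 and 0.50, higher with ganglia each time. The log2 fold change was 0.61 (95% confidence interval 0.10 to 1.11 without a block, 0.39 to 0.82 with it). From limma the adjusted p of Fgf2 was 0.9999 without a block and 0.00474 with it, with a range of 1.2e-04 to 1 over all alternatives. The fold change ran from 0.41 to 0.79 over fits that each lacked 1 library. The study named Fgf2 among the genes of a set enriched in these same libraries, so this is not independent evidence of its direction. Of its exon bases, 3.88% lie in the predicted gene Gm43439 on the same strand and cannot be parted from it, while Nudt6, on the opposite strand, is parted by the stranded counting. No marker of the 8 cell type lists was past the threshold in this comparison, with or without the block.

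No other secreted ligand was past the threshold. Fgf7, on chromosome 2 (125876578 to 125934218, plus strand), had 5483, 3187 and 5525 normalized counts in PSC replicates 1, 2 and 3 and 7699, 3189 and 5791 in PSC+SCG. Replicate 1 was higher with ganglia by 0.49 on the log2 scale, and the pairs of replicates 2 and 3 differed by 0.0012 and 0.07. Its log2 fold change of 0.19 (95% confidence interval -0.04 to 0.41 with the block) left an adjusted p of 0.732 from limma with the block. Fgf10, the close relative of Fgf7 on chromosome 13 (118806327 to 118928672, plus strand), had 882, 702 and 745 in PSC and 1113, 629 and 999.9 in PSC+SCG, so that replicate 2 went down while the other pairs went up. Fgf1 had 143, 89.7 and 96.3 in PSC and 180.0, 112 and 106 in PSC+SCG. It was higher in each same-numbered pair, but by 0.14 to 0.33 on the log2 scale, and the adjusted p from limma was 0.894 with the block. Higher in all 3 pairs were 3 of the 9 genes, Fgf1, Fgf2 and Fgf7, against 13.6% of all genes tested, and lower in all 3 were 0 of the 9, against 9.94%. In none of the 9 did the groups stay apart, against 2.9% of all genes higher and 1.47% lower.

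Replicate 2 stood apart for several of these genes. It was the lowest of its group for Fgf2, Fgf7, Fgf10 and Fgfr2 in PSC and in PSC+SCG, and the highest for Fgfr1. Fgf7 in PSC replicate 2 was 3187, well under the 5483 and 5525 of its sister libraries, and with ganglia replicate 2 was again lowest at 3189.

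The receptors gave no call. Fgfr1, the main FGF receptor of fibroblasts, on chromosome 8 (26003670 to 26066824, plus strand), had 16050.2, 19003.5 and 15243 normalized counts in PSC and 16279.7, 20714 and 14312 in PSC+SCG. Its log2 fold change was 0.02, with a 95% confidence interval of -0.20 to 0.23 with the block, and quantile normalization turned its sign (-0.0082). Fgfr2, on chromosome 7 (minus strand), had 1083, 690.2 and 1129.9 in PSC and 1086, 726 and 1123 in PSC+SCG, and with ganglia the 3 pairs moved by 0.0033, 0.07 and -0.0084 as log2 differences. In Fgfr2 4.33% of the exon bases are shared with Ctbp2 on the same strand, and gene counts do not tell its splice forms apart. Fgfr3, a receptor best known from cartilage, had 60.03, 63.6 and 69.4 in PSC and spread to 37.6, 57.2 and 88.3 in PSC+SCG, with 1 pair higher and 2 lower. Its 95% confidence interval ran from -0.72 to 0.41 on the log2 scale with the block, so any difference within these bounds was compatible with the values.

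Fgf13 and Fgf18 were near the limit of detection in PSCs. Fgf13, on chromosome X (58106279 to 58613431, minus strand), had 1, 0 and 0 reads in PSC and 7, 6 and 0 in PSC+SCG. The summed reads gave a ratio of 13.4 between the groups, with an exact 95% interval of 2.01 to 568 that covers counting error only, and the library without a read in PSC+SCG shows how far replicates differed. Its adjusted p from limma was 0.621 with the block. The sympathetic markers Th and Snap25 were listed at 0 in the same PSC+SCG libraries. The 13 sympathetic markers summed to 1124 to 1199 in PSC and 953 to 1454 in PSC+SCG. Most of that sum was Hand2 (means of 751 in PSC and 736 in PSC+SCG) and Gata3 (368 and 397). Only these 2 of the 13 had a mean of at least 100. The sum thus cannot show whether a few reads came from the ganglia, and the source of the Fgf13 reads was not tested. Fgf18, on chromosome 11 (33067014 to 33097828, minus strand), had 18 reads in all in PSC and 20 in PSC+SCG, a ratio of 1.14 (exact 95% interval 0.574 to 2.29).

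**Figure D2:**
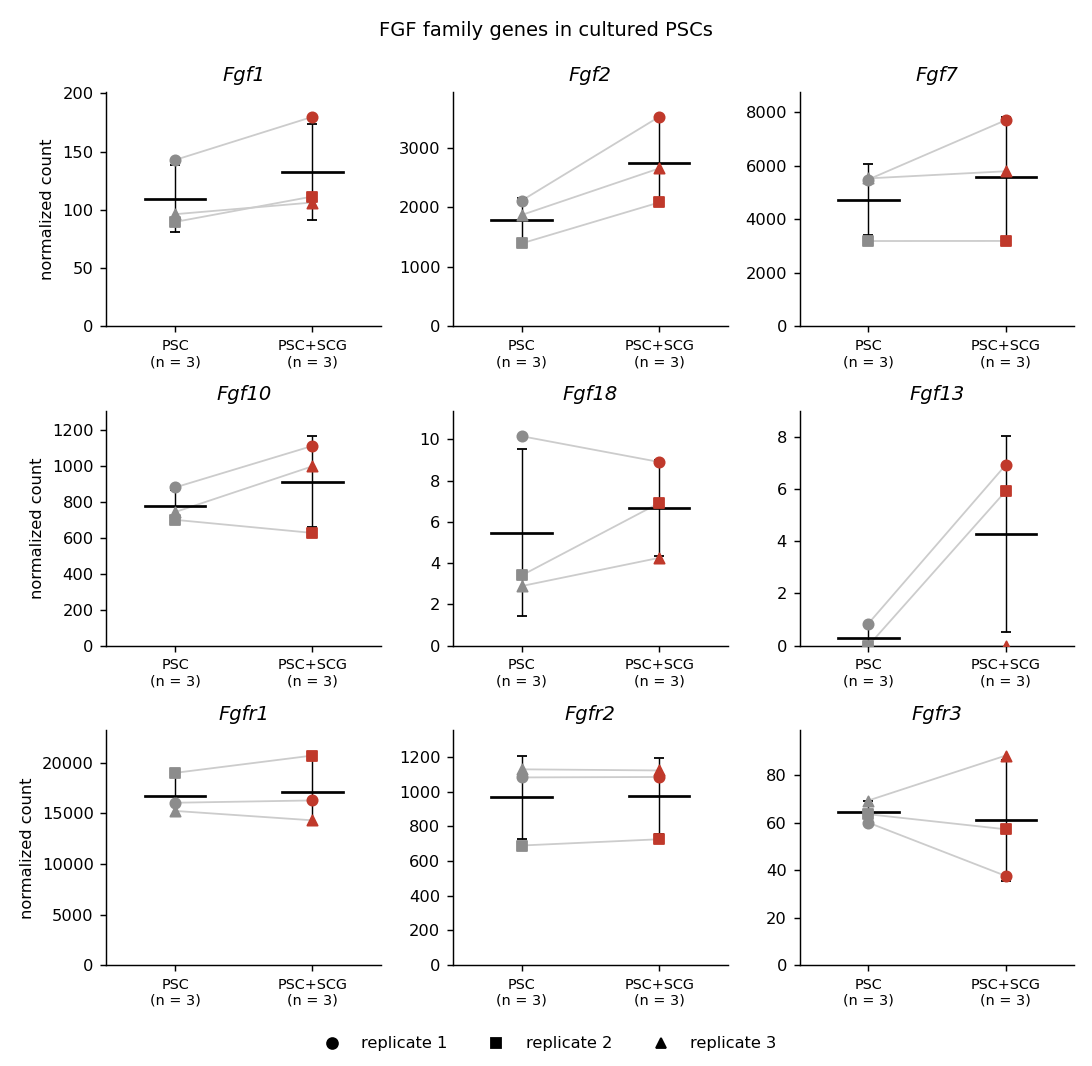
Normalized counts of the 9 FGF genes in PSC (gray) and PSC+SCG (red), 1 point per library, with the same-numbered libraries joined, and the mean and SD (n = 3) in black; each vertical axis starts at 0. Fgf2 is higher with ganglia along all 3 lines, at 1395 to 2115 in PSC and 2083 to 3523 in PSC+SCG, whereas the lines of Fgfr2 are nearly level and Fgf13 stays under 7 normalized counts.

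In the ganglia the question was whether coculture with PSCs, or with the control fibroblasts, went with other FGF levels. In such bulk samples, fewer cells of a type and less RNA per cell cannot be told apart. In SCG+PSC against SCG, 0 of the 9 genes were past the threshold with limma without a block (0.0501% of all genes tested) or with it (1.93%, of which 1.75% higher and 0.175% lower). Unadjusted p-values under 0.05 were found for 1 of 9 genes without the block, Fgf13, and for 4 of 9 with it. DESeq2 on the recovered reads with the replicate block placed 1 of the 9 past it, Fgf13, against 2.51% of all genes (2.18% higher, 0.331% lower), and edgeR placed none. SCG+PSC replicate 4 has no same-numbered partner and carries no weight in the blocked fits.

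Fgf13 had the largest difference of the 9 genes between SCG+PSC and SCG. SCG replicates 1, 2 and 3 had 1399, 1114 and 756 normalized counts, and SCG+PSC replicates 1, 2, 3 and 4 had 1771, 1536, 1676 and 1783. The groups did not overlap, and Fgf13 was the only 1 of the 9 genes of which this was true, against 3.13% of all genes apart and higher and 1.98% apart and lower. Same-numbered libraries differed by 0.34, 0.46 and 1.15 on the log2 scale, the largest in replicate 3, where SCG was lowest. The log2 fold change was 0.68 (SE 0.23, 95% confidence interval 0.17 to 1.18). Its adjusted p was 0.861 from limma without a block, 0.0708 from limma with it and 0.00146 from DESeq2 with the block, over a range of 0.00146 to 1 for all alternatives. Without SCG replicate 3 the fold change was 0.44, without SCG replicate 1 it was 0.88 and without SCG+PSC replicate 2 it was 0.72. SCG+MEF had 1534, 1491 and 837, so each SCG+PSC library was also above each SCG+MEF library, the closest pair being 1536 and 1534. Of all genes, 2.2% were apart and higher and 2.41% apart and lower in that comparison. The summed sympathetic neuron markers gave 125569 to 297703 in SCG and 144451 to 256702 in SCG+PSC, which overlapped, and none of the 13 was past the threshold. Cycling cell markers were higher at the same time, with sums of 5329 to 19539 in SCG and 16098 to 27902 in SCG+PSC, and 7 of these 8 markers were past the threshold with limma and the block. Lum among the fibroblast markers and Mrc1 among the macrophage markers were also past it, both higher. The 8 endothelial markers had a median log2 fold change of 0.87 and the 6 pericyte and smooth muscle markers one of -0.39 with the block, with none past the threshold. The part of these cell types in the Fgf13 result was not tested.

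The other intracellular FGFs give a measure of the same family in the same libraries. Fgf11 had 575 ± 154 normalized counts (SD, n = 3) in SCG and 464 ± 94.5 (SD, n = 4) in SCG+PSC, and Fgf14 had 516 ± 149.9 and 512 ± 91.4. With the block 0 of the 3 genes Fgf11, Fgf12 and Fgf14 had a log2 fold change above 0 in SCG+PSC, and their median was -0.24 beside 0.0074 for all protein-coding genes tested. Their difference from Fgf13 was not tested. Of the 5 sodium channels that these factors bind, 2 lay above 0 with the block, with a median of -0.09 and a lowest value of -0.58 (Scn1a), and none was past the threshold. Those with the highest counts were Scn9a, with 2511 ± 524 normalized counts (SD, n = 3) in SCG and 2731 ± 673 (SD, n = 4) in SCG+PSC, and Scn3a, with 2552 ± 566 and 2603 ± 617.

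Fgf2 lay lower beside control fibroblasts and higher beside PSCs within each replicate number. SCG replicates 1, 2 and 3 had 1891, 2792 and 2159 normalized counts. SCG+MEF had 1371, 2428 and 1988, and SCG+PSC had 2146, 3221, 2559.5 and 2695. All groups overlapped, and replicate 2 was highest and replicate 1 lowest in each of them. Against SCG with the same number, Fgf2 was lower in SCG+MEF in 3 of 3 pairs (by -0.46, -0.20 and -0.12 on the log2 scale) and higher in SCG+PSC in 3 of 3 pairs (by 0.18, 0.21 and 0.25). Neither comparison with SCG was past the threshold, with log2 fold changes of -0.26 (95% confidence interval -0.44 to -0.08) and 0.21 (0.03 to 0.39) with the block and adjusted p from limma of 0.439 and 0.364. Higher than SCG in all 3 pairs in SCG+PSC were Fgf2, Fgf13 and Fgfr1, against 20.1% of all genes. Both comparisons share the SCG libraries, so the coculture groups were also set against each other.

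In SCG+PSC against SCG+MEF, 0 of the 9 genes were past the threshold with limma without a block (0% of all genes tested, with 628 at an unadjusted p under 0.05, and 18 past the threshold by DESeq2 and 0 by edgeR) or with it (1.14%, of which 0.957% higher and 0.181% lower). Without the block, Fgf2 and Fgf7 (2 of 9) had an unadjusted p under 0.05. Fgf2 came closest in adjusted p, at 0.0294 from limma with the block (0.9998 without, and 3.65e-04 to 1 over all alternatives), but its log2 fold change of 0.47 (95% confidence interval 0.29 to 0.65) was under the 0.5 required. It was higher in SCG+PSC in all 3 pairs. Without SCG+MEF replicate 1 the fold change was 0.26, without SCG+MEF replicate 2 it was 0.67 and without SCG+PSC replicate 2 it was 0.39.

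Fgf7 went the other way. SCG+MEF replicates 1, 2 and 3 had 186, 344 and 207 normalized counts of Fgf7, SCG+PSC replicates 1 to 4 had 130.5, 197, 119.6 and 148, and SCG had 129.6, 309 and 193. SCG+PSC replicate 2 lay above SCG+MEF replicate 1, so the groups overlapped, yet each SCG+PSC library was under the SCG+MEF library of its number. The log2 fold change of SCG+PSC against SCG+MEF was -0.70 (95% confidence interval -1.06 to -0.34 with the block). Its adjusted p was 0.9998 from limma without a block, 0.0804 with it and 0.0254 from DESeq2 with the block, which put Fgf7 alone of the 9 past the threshold, against 2.23% of all genes (0.567% lower and 1.67% higher). Without SCG+MEF replicate 2 the fold change was -0.42, and without SCG+PSC replicate 2 it was -0.83. Against SCG the log2 fold change of Fgf7 was -0.44 in SCG+PSC and 0.26 in SCG+MEF with the block, both short of the threshold. Fibroblasts are a usual source of Fgf7. Of the 10 fibroblast markers, only Lum was past the threshold in SCG+PSC against SCG+MEF with limma and the block, and it was lower (log2 fold change -0.64). As a list, 4 of the 10 lay above 0 in that comparison, with a median of -0.03. Lum and Dcn were higher past the threshold in SCG+MEF than in SCG (1.29 and 0.74). In SCG+PSC against SCG, where Fgf7 was at -0.44, Lum was also higher past the threshold (0.65), and 7 of the 10 fibroblast markers lay above 0 with a median of 0.27. The summed fibroblast markers overlapped between SCG+MEF (619309 to 770723) and SCG+PSC (598314 to 757703), and their part in the Fgf7 result was not tested. Lower in all 3 pairs was 1 of the 9 genes, Fgf7, against 20.6% of all genes, and higher in all 3 pairs were Fgf2, Fgf13 and Fgfr1, against 16.7%.

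**Figure D3:**
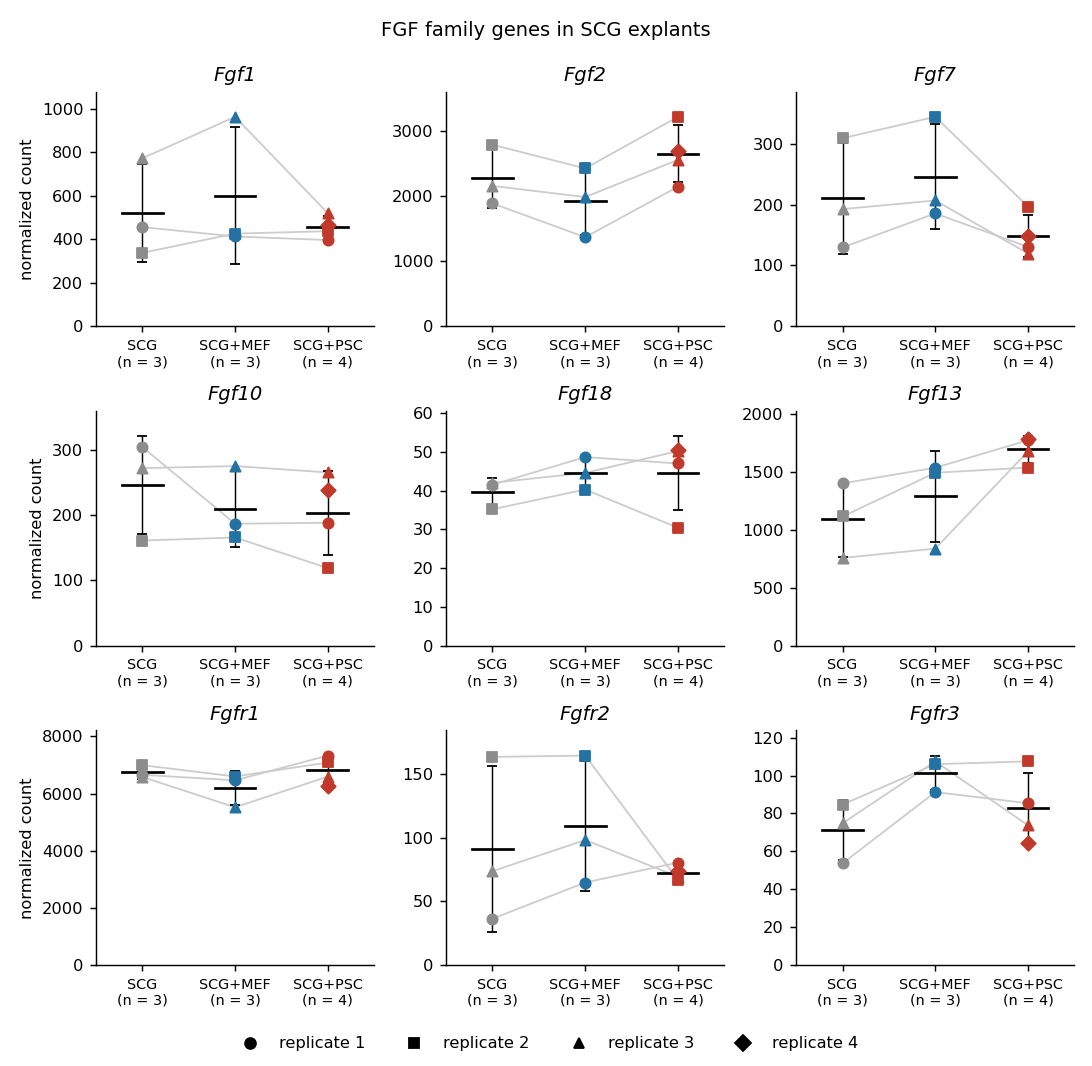
Normalized counts of the 9 FGF genes in SCG (gray), SCG+MEF (blue) and SCG+PSC (red), 1 point per library, with same-numbered libraries joined and the mean and SD in black (n = 3, 3 and 4); each vertical axis starts at 0. Fgf2 dips in SCG+MEF and is highest in SCG+PSC along every line, Fgf13 lies at 1536 to 1783 in SCG+PSC above all other libraries, and Fgf7 is lower in SCG+PSC than in SCG+MEF along every line.

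The receptors of the ganglia gave no call. Fgfr1 had 6655, 6992 and 6580.0 normalized counts in SCG, 6460.3, 6595 and 5519 in SCG+MEF and 7327, 7085, 6593 and 6261 in SCG+PSC. Its 95% confidence intervals with the block were -0.10 to 0.21 on the log2 scale for SCG+PSC against SCG and -0.28 to 0.03 for SCG+MEF against SCG. Fgfr3, on chromosome 5 (33879018 to 33894412, plus strand), is made by glial lineages in the nervous system. It had 53.7, 84.7 and 74.8 in SCG and 91.2, 106 and 107 in SCG+MEF, so that these groups did not overlap, while SCG+PSC had 85.4, 107, 73.7 and 64.6. The log2 fold change in SCG+MEF was 0.53 (95% confidence interval 0.07 to 0.99 with the block), and the adjusted p from limma was 0.595 with the block. In SCG+MEF against SCG, 0 of the 9 genes were past the threshold with limma without a block (0.0188% of all genes) or with it (0.238%, of which 0.169% higher and 0.0688% lower), or with DESeq2 and the block (0.63%, of which 0.43% higher and 0.2% lower), and 0 of the 9 had an unadjusted p under 0.05 without the block. Fgfr3 was 1 of the 9 whose groups stayed apart there, against 2.95% of all genes higher and 2.05% lower. Higher in all 3 pairs were 5 of the 9 genes (Fgf7, Fgf13, Fgf18, Fgfr2 and Fgfr3, against 17.3% of all genes), and lower in all 3 were Fgf2 and Fgfr1 (against 10.2%). Of the 10 glial markers 6 lay above 0 in SCG+MEF against SCG, with a median log2 fold change of 0.03. The 2 that were past the threshold with the block, Kcnj10 and Fabp7, were lower in SCG+MEF (-0.71 and -0.50), and their part in the Fgfr3 values was not tested.

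Fgfr2 had the widest relative spread of the 9 genes in SCG, though not in the coculture groups. SCG had 36.4, 164 and 73.8 normalized counts, SCG+MEF had 64.9, 165 and 98.3, and SCG+PSC had 80.6, 66.9, 69.4 and 73.6. The coefficient of variation was thus 71.6% in SCG, 46.5% in SCG+MEF and 8.23% in SCG+PSC. Its interval for SCG+PSC against SCG ran from -0.84 to 0.68 on the log2 scale with the block, so a change of that size in either direction could not be detected. Fgf1, Fgf2, Fgf7, Fgf13 and Fgfr2 each had a smaller SD in SCG+PSC than in the other nerve groups. For Fgf2 the SDs were close, at 443 in SCG+PSC, 463 in SCG and 531 in SCG+MEF. The likeness of SCG+PSC replicates 3 and 4 enters the spread of that group.

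Fgf1, Fgf10 and Fgf18 gave no call in the ganglia. Fgf1, which binds all FGF receptors, had 456, 338 and 772 in SCG, 413, 426 and 962 in SCG+MEF and 396, 437, 519 and 464 in SCG+PSC. Replicate 3 was the highest in each group that has 3 libraries, and also among the 4 of SCG+PSC. Fgf10 had 304, 161 and 272 in SCG, 187, 166 and 275 in SCG+MEF and 188, 119, 265 and 238 in SCG+PSC. It was lower in SCG+PSC in 3 of 3 pairs, as were 14.9% of all genes, with a log2 fold change of -0.39 (95% confidence interval -0.77 to -0.01) and an adjusted p of 0.459 from limma with the block. Fgf18 ranged from 30.4 to 50.4 normalized counts over the 10 nerve libraries, and its log2 fold changes were 0.14 in SCG+PSC and 0.17 in SCG+MEF.

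**Figure D4:**
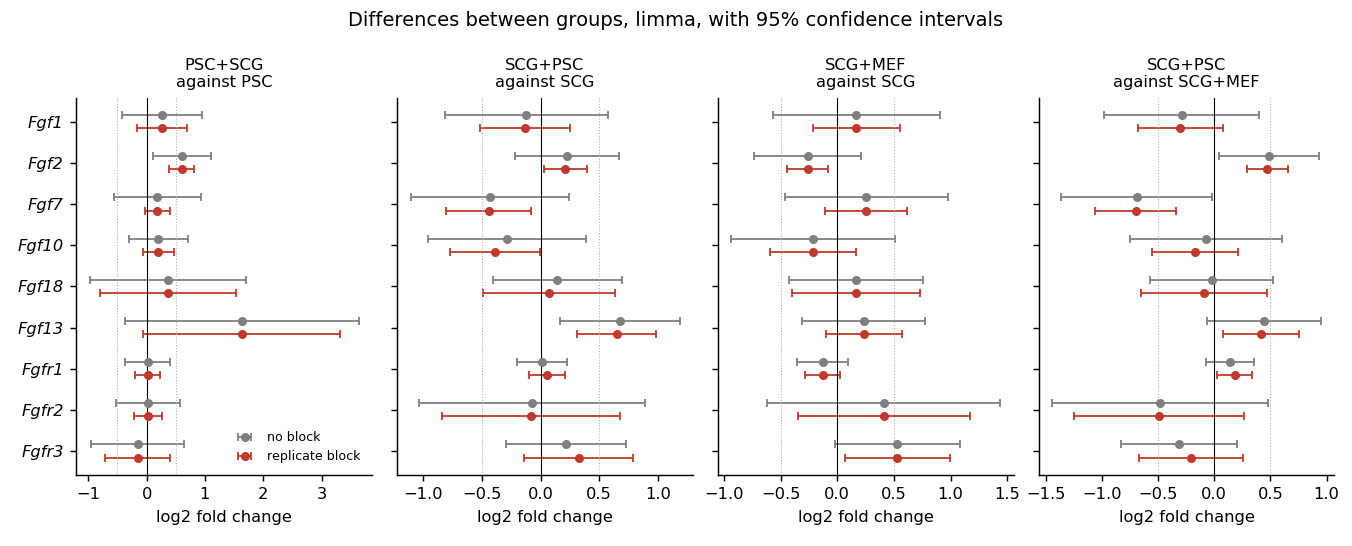
Log2 fold changes of the 9 FGF genes in the 4 comparisons from limma, without a block (gray) and with the replicate block (red), with 95% confidence intervals; dotted lines mark a log2 fold change of 0.5 in size. With the block the interval of Fgf2 in PSC+SCG against PSC runs from 0.39 to 0.82, while the largest difference of Fgfr1 is 0.18.

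The rest of the pathway was described from fixed lists. In PSC+SCG against PSC no gene of the 9 other lists was past the threshold, with or without the block, beside 0.523% of all genes with it. The 14 FGF-ERK response and feedback genes tested had a median log2 fold change of 0.08, beside 0.01 for all protein-coding genes, and 11 of them lay above 0. The most abundant of them were Spred1, an inhibitor of RAS-ERK signalling, with 2959 ± 227 normalized counts in PSC and 3316 ± 603 in PSC+SCG, and Egr1, an immediate early gene, with 3530.0 ± 479.8 and 2607 ± 477. Egr1 had a log2 fold change of -0.44 and an adjusted p of 0.139 from limma with the block. Enzymes that build or edit heparan sulfate, on which FGFs depend for binding, had log2 fold changes above 0 in all 11 cases, with a median of 0.12 and a highest value of 0.48. Sulf2, which removes sulfate groups from heparan sulfate, had 11690 ± 1364 in PSC and 12656 ± 2588 in PSC+SCG. The 19 adaptors and effectors had a median of 0.01. Of 11 heparan sulfate proteoglycans tested 9 lay above 0 (median 0.11), as did 5 of 6 FGF binding and membrane partners (median 0.15). Beyond the 5 member ligands, PSCs had few FGF transcripts, and Fgf21 was the highest of the other 13 ligands with 30.4 ± 13.6 normalized counts in PSC. The decoy receptor Fgfrl1 had 1394 ± 55.1 in PSC and 1416 ± 198 in PSC+SCG, and Fgfr4 had 3.10 ± 2.24 and 2.68 ± 0.483.

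In the ganglia, too, no gene of these 9 lists was past the threshold with limma in any of the 3 comparisons, with or without the block. Nearest was Sulf2, with 6806 ± 640.2 normalized counts in SCG, 8544 ± 644 in SCG+MEF and 8715 ± 147 in SCG+PSC. Its adjusted p from limma with the block was 0.0323 in SCG+PSC against SCG, at a log2 fold change of 0.37 that is under 0.5, and 0.165 in SCG+MEF against SCG. Fgf5 had 2717 ± 625 in SCG, 3417 ± 732 in SCG+MEF and 3376 ± 342 in SCG+PSC, and its adjusted p was 0.511 and 0.283 with the block. In SCG+PSC against SCG+MEF, 13 of the 14 FGF-ERK response and feedback genes lay above 0, with a median log2 fold change of 0.17 with the block beside -0.02 for all protein-coding genes. Dusp6, a phosphatase that inactivates ERK and was singled out after its values were seen, had 1381 ± 115 in SCG+MEF and 1819 ± 156 in SCG+PSC, and its adjusted p from limma with the block was 0.0630.

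**Figure D5:**
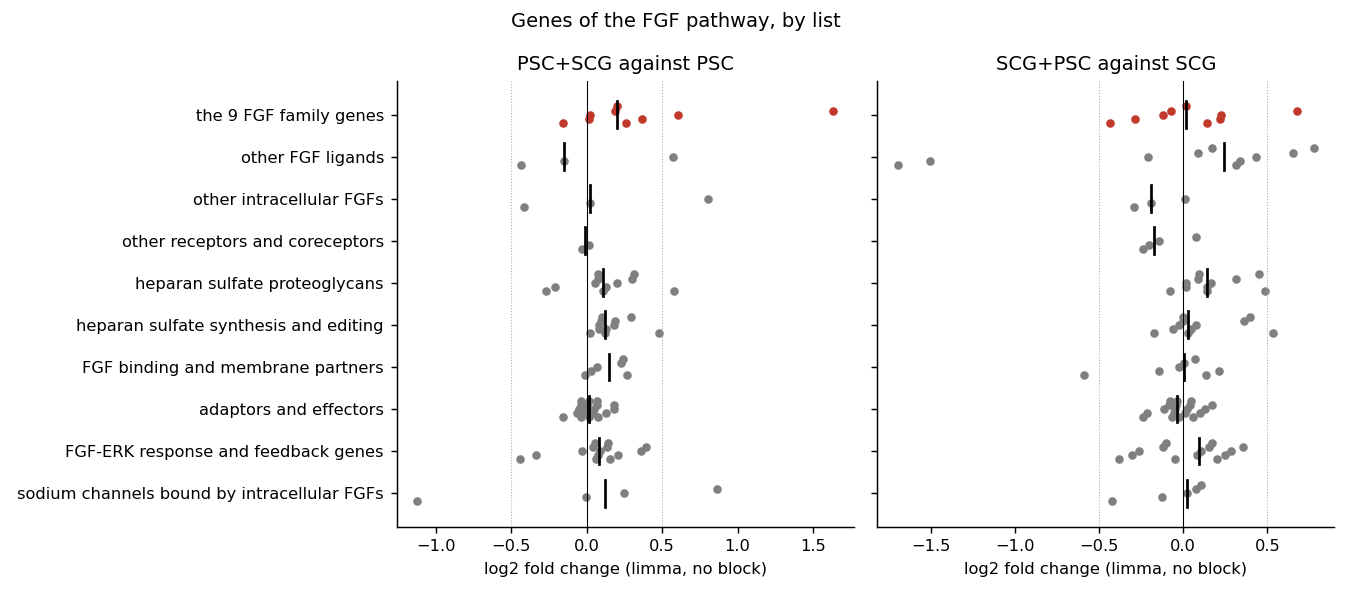
Log2 fold changes from limma without a block for the 9 FGF genes (red) and the other FGF pathway lists (gray), 1 point per gene, with the median of each list as a black bar, in PSC+SCG against PSC (left) and SCG+PSC against SCG (right). Most lists center near 0. Fgf2 at 0.61 and Fgf13 at 1.63 (left) and Fgf13 at 0.68 (right) lie past the dotted line at 0.5. The left value of Fgf13 rests on 1, 0 and 0 reads in PSC and 7, 6 and 0 in PSC+SCG.

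The genes whose profile was most like each FGF gene were sought by Pearson's r of log2(normalized count + 1), over genes with a mean of at least 50. Over the 6 PSC libraries, Fgf2 was most like Steap2 (r = 0.995), Adgrf5 (0.993) and Cep85l (0.987) among 11661 genes. Fgfr1 was most like Kctd7 (0.995), and Fgf7 was most like Rab12 (0.993). Over the 10 nerve libraries and 12844 genes, Fgf2 was most like Alcam (r = 0.968), Slc7a6 (0.962) and Hnrnpab (0.961), Fgf13 was most like Bmp3 (0.966), Pcdh17 (0.965) and Mmp12 (0.961), and Fgf7 was most like Cachd1 (0.959). The points share groups and replicate numbers, and with so few libraries high values are found for many genes, so these names are a description.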

How the data were processed

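PSC and nerve libraries were sequenced from stranded mRNA libraries (TruSeq). The authors aligned reads with STAR 2.7.10b to GRCm39, counted reads per gene and strand with the M33 basic set of GENCODE and scaled them by size factors of DESeq2 1.38.3 in R 4.2.2, for PSC and nerve libraries apart. The deposited values are a signal, the normalized counts. Divided by the step of a library, 100% of values were whole within 0.01, which gives back the reads. A coded check accepted this in 14 of the 16 libraries, and in the others (SCG+PSC replicate 4 and PSC+SCG replicate 1) 1 read is worth about 1 unit. Reads of all 16 were used in edgeR and DESeq2.

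Log2(normalized count + 1) of genes with a sum of at least 10 was tested with limma 3.58.1 (trend) in R 4.3.3, with p-values adjusted by Benjamini-Hochberg over all genes tested. The authors' model held batch, which the labels tie to no library, so the main fit has no block. All 10 nerve libraries entered 1 fit. Deviations from group means were correlated between same-numbered libraries in every pair (r from 0.54 to 0.83 in PSCs and 0.33 to 0.78 in nerves). Between libraries with different numbers r ran from -0.75 to 0.38 in PSCs and -0.59 to 0.43 in nerves. SCG+MEF replicate 3 was more like SCG+PSC replicate 4 (0.43) than SCG+PSC replicate 3 (0.33). The numbers were taken to pair the samples, and blocked values are given. With this pairing taken from the data, and no label on separate cultures, p-values measure the spread between libraries, which may be partly technical.

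Genes named were the 9 FGF genes, from each list those past the threshold or else up to 2 with the highest mean, and the 3 genes most like each FGF gene. The 9 genes and the lists were chosen with earlier results of these data known. Exon lengths came from the basic transcripts of GENCODE M39, and promoters from RefSeq. Promoter entries on chromosome 18, where Fgf1 lies, were left out. Entries were used for 7 of the 9 genes, and windows were printed for Fgf2 and Fgf7. Alternatives were other pseudocounts (0.5 and 8), filters, quantile normalization, adjustment over protein-coding genes, the block, edgeR 4.0.16, DESeq2 1.42.0 and leaving out each library. The blocked edgeR and DESeq2 fits, and DESeq2 for PSCs, were added after the data had been seen. Without a block edgeR placed 0 protein-coding genes past the threshold in the PSC comparison, 6 and 3 in SCG+PSC and SCG+MEF when each was set against SCG, and 0 between these coculture groups. Only limma without a block was checked on simulated data, in which libraries were independent. The blocked, edgeR and DESeq2 fits were not checked in this way.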

Additional observations from a re-analysis of the deposited data

Results flagged for a closer look

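Fgf2 and Fgfr1 in the ganglia are listed because every same-numbered pair went one way with control fibroblasts and the opposite way with PSCs, relative to SCG. This rule takes signs only. For Fgfr1 the log2 differences from SCG were 0.14, 0.019 and 0.0029 in SCG+PSC and -0.04, -0.08 and -0.25 in SCG+MEF. The unpaired SCG+PSC replicate 4 had 6261 normalized counts of Fgfr1, under the 6580 to 6992 of SCG. No share of all genes is given for the pattern. For Fgf2 the direct test of SCG+PSC against SCG+MEF with the replicate block gave a log2 fold change of 0.47 and an adjusted p of 0.0294 from limma. For Fgfr1 it gave 0.18 and an adjusted p of 0.332. The pattern itself sets SCG+PSC above SCG+MEF in every same-numbered pair, so these tests on the same libraries restate it and are not independent support. SCG libraries are shared by the comparisons that define the pattern, and 9 genes were open to it. In SCG+PSC, the only group with 4 libraries, no FGF gene had a highest or lowest value past Dixon's criterion at the level used. The nearest was Fgf18, at 30.4 normalized counts in replicate 2 against 47.0 to 50.4 in the others. No such result is given for groups of 3.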

How the results depend on the processing

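Of 430 member values under alternatives that kept all libraries, 421 kept their direction and their side of the threshold, 6 passed it newly and 3 changed sign. In PSC+SCG against PSC the number of FGF genes past the threshold was 0 without a block and 1 (Fgf2) with the replicate block, with edgeR or DESeq2 and the replicate block, and with replicates 3 left unpaired. DESeq2 with the replicate block gave 1 in SCG+PSC against SCG (Fgf13) and 1 in SCG+PSC against SCG+MEF (Fgf7). The block changed no other call among the 9 genes. Signs changed for Fgfr1 in PSCs after quantile normalization (-0.0082) and for Fgf18 in SCG+PSC against SCG+MEF with edgeR (0.0095) and DESeq2 (0.0019) on recovered reads.

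With 1 library left out, 0 FGF genes were past the threshold in all comparisons, and 25 of 322 values changed sign. Log2 fold changes then ran in PSC+SCG against PSC from -0.094 to 0.54 for Fgf7, -0.13 to 0.14 for Fgfr1, -0.20 to 0.22 for Fgfr2 and -0.46 to 0.15 for Fgfr3. In SCG+PSC against SCG they ran from -0.39 to 0.20 for Fgf1, -0.022 to 0.040 for Fgfr1 (0.054 without SCG+PSC replicate 4) and -0.59 to 0.47 for Fgfr2. In SCG+MEF against SCG they ran from -0.23 to 0.49 for Fgf1, -0.046 to 0.58 for Fgf7, -0.0078 to 0.52 for Fgf13 and -0.11 to 0.96 for Fgfr2. In SCG+PSC against SCG+MEF they ran from -0.50 to 0.11 for Fgf1, -0.22 to 0.16 for Fgf10 and -0.092 to 0.15 for Fgf18. These fits had no block, and the cause of the sign changes was not tested.

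Counts of all protein-coding genes past the threshold moved far more: with the replicate block limma placed 76 there in the PSC comparison (163 with replicates 3 unpaired), 308 against 8 without it in SCG+PSC against SCG, 38 against 3 in SCG+MEF against SCG and 182 against 0 in SCG+PSC against SCG+MEF. Blocked edgeR gave 81, 324, 39 and 212 in the same order, and blocked DESeq2 65, 402, 101 and 358. DESeq2 without a block gave 72 in SCG+PSC against SCG. With 3 or 4 libraries in a group, and few reads for Fgf13 and Fgf18 in PSCs, a small difference could not be detected.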
